A study of Homo sapiens with 33 samples.

Results

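The genes described here act in G2, in mitosis or in its control, and comprise 40 members among the 56470 gene symbols of a bulk RNA sequencing time course of cetuximab in head and neck cancer cell lines. They were chosen by symbol, from a list of known G2/M and mitotic genes and not by a measured value, though earlier results of these data were known. All 40 were found in the count table and all 40 passed the filter on low counts in each line. They fall into 10 roles, from the CDK1 kinase with its cyclins and phosphatases to the chromosome proteins, and FOXM1 is the only transcription factor among them. The lowest count of a member in any library was 198 (CDC25C) and the highest was 38070 (ANLN).

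The lines SCC1 (UM-SCC-1), SCC6 (UM-SCC-6) and SCC25 are established head and neck squamous cell carcinoma (HNSCC) lines. Cetuximab is an antibody that blocks the epidermal growth factor receptor, EGFR. Each line was cultured with PBS (the untreated control) or with 100 nM cetuximab from the day after plating, under a daily change of medium, and RNA was taken daily. Each line has 6 PBS libraries, for days 0 to 5, and 5 cetuximab libraries, 33 in all. All groups grew in serum-containing medium, with hydrocortisone for SCC1 and SCC25 and with non-essential amino acids for SCC6, and no cell carried a genetic change made for the study. Each line is 1 culture model, so nothing here speaks of tumours or of other lines. The labels of SCC6 give day 2 for 2 cetuximab libraries, called day 2 (a) and day 2 (b) here, and day 1 for none.

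A cell enters mitosis when CDK1, bound to a B-type cyclin and freed of its inhibitory phosphates by a CDC25 phosphatase, becomes active. Aurora and Polo kinases and the kinesin motors then build the spindle, the kinetochores attach the chromosomes to it, and the spindle checkpoint holds back the anaphase-promoting complex until all are attached, after which sister chromatids part and the cell divides. Many of the genes are transcribed mainly in G2 and M, under the MuvB complex with B-MYB and FOXM1, so that their RNA in a bulk culture follows cycling cells. In these bulk libraries, fewer cells in G2 and mitosis and less RNA per such cell cannot be told apart.

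Total counts per library ran from 28508758 to 80727478, and 1 of the 5 flow cells held nothing but the day 4 and day 5 cetuximab libraries of SCC6. The highest correlation of log2 CPM between any pair of libraries was 0.995, so no pair held identical values. All 11 keratinocyte markers were detected in each line, at a summed level of 2706 to 20868 counts scaled to a common library size (CPM), while 3 to 5 of 10 leukocyte and endothelial markers stayed under 0.1 CPM in every library of a group. Each labelled day has at most 1 library per treatment and line, apart from day 2 with cetuximab in SCC6, so the libraries of different days stand in for replicates, and the p-values measure the spread among these libraries, day-to-day change included. Levels are given in CPM, scaled by the trimmed mean of M-values (TMM) over all 33 libraries, and serve to compare libraries for 1 gene and not genes with each other. PBS and cetuximab values are listed in the order of days 1 to 5, and for cetuximab in SCC6 in the order of day 2 (a), day 2 (b) and days 3, 4 and 5. A member was called when its adjusted p (edgeR's quasi-likelihood test, Benjamini-Hochberg over all genes tested) was under 0.05.

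The promoters of these genes are known for 2 short elements, the CCAAT box, bound by NF-Y, and the cell cycle genes homology region (CHR), bound by MuvB. The RefSeq windows of 250 bases before and 50 bases after the annotated start (assembly GRCh38.p14) were found for 34 members. AURKA, BIRC5, TTK, TPX2, UBE2C and FOXM1 were not among them. Searched on both strands, TTTGAA, the CHR, stood in a window of 24 of the 34 members (70.6%) and of 18.2% of all 27305 genes with a window. TTTAAA, a CHR variant, stood in 13 members (38.2%) against 14.5% of all genes, and CCAAT in 25 members (73.5%) against 39.7%. The CHR and the CCAAT box stood together in the windows of 18 members (52.9%) and of 8.37% of all genes. Of the 38 CHR matches, 18 lay 1 to 60 bases before the start. The members with no CHR in any of their windows were CCNB1, CCNA2, CDC25B, AURKB, BUB1, CENPE, KIF20A, KIF2C, CKAP2 and PTTG1. The 100 bases just before the start are shown for 8 members that cover both forms of the CHR with and without a CCAAT box. Capitals mark matches of the 3 elements on either strand, so that ATTGG is CCAAT on the other strand, and in MKI67 1 CHR and 1 CCAAT match share a base.
CCNB1, chr5:69167050-69167149, plus strand: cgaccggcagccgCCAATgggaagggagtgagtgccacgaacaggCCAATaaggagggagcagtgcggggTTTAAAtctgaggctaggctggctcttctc
CCNB2, chr15:59105046-59105145, plus strand: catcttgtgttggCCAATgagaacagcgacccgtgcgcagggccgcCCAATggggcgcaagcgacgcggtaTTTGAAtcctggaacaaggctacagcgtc
KIF20A, chr5:138179012-138179111, plus strand: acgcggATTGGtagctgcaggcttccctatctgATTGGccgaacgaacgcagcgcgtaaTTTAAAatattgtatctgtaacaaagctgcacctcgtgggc
PLK1, chr16:23678789-23678888, plus strand: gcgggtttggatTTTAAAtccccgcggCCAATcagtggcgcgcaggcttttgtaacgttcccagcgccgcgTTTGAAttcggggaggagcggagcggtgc
CDC20, chr1:43358881-43358980, plus strand: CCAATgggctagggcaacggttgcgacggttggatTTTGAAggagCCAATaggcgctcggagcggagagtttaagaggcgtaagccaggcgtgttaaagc
PRC1, chr15:90994536-90994635, minus strand: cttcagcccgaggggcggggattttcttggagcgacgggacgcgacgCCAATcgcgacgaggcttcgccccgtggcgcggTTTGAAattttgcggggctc
MKI67, chr10:128126424-128126523, minus strand: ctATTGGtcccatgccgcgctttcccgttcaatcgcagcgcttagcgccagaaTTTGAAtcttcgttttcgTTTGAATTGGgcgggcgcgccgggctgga
CENPA, chr2:26785956-26786055, plus strand: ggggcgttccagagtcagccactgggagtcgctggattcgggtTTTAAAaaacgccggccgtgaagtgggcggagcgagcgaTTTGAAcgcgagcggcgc

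CCNB1 and KIF20A hold the variant and no CHR in their windows, CCNB2, CDC20, PRC1 and MKI67 hold the CHR beside CCAAT boxes, PLK1 holds both forms, and CENPA holds both forms with no CCAAT box in these 100 bases. A match is a string of letters and not a measured binding site. Under cetuximab, the median log2 fold change of the 24 members with a CHR in SCC1 was -0.40 and that of the 10 without was -0.31. The same medians were -0.25 and -0.30 in SCC25 and -0.13 and -0.17 in SCC6.

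In SCC1, 23 of the 40 members fell under cetuximab over days 1 to 5 and 1, CDC25B, rose. Of all 17984 genes tested, 22.1% were called lower and 22.7% higher. The median log2 fold change of the members was -0.42, against 0.02 for all genes, and 38 of the 40 had a negative sign. Roles whose measured members all fell were the spindle checkpoint kinases (3 of 3), cytokinesis (3 of 3) and the anaphase-promoting complex with securin (3 of 3). The lowest changes were those of AURKB at -0.81, NUF2 at -0.73, NCAPG at -0.73 and CDC20 at -0.71. With the libraries paired by day, 37 members were called lower and 1 higher (22.4% of all genes lower), which left CKAP2 and KIF20A uncalled. With flow cell as a covariate, ANLN, AURKB, BUB1B, CDK1, ECT2, FOXM1, KIF2C, KIF4A, NCAPG, NUF2, PRC1 and SMC4 were called, 12 in all and all lower (10.6% of all genes lower), where the only PBS library on the flow cell of the cetuximab libraries was that of day 5.

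In SCC25, 21 members fell and none rose, where 9.50% of all 19101 genes were called lower and 8.80% higher. The median was -0.28 (0.01 for all genes) and all 40 signs were negative. All 4 genes of the Aurora and Polo kinase role, which includes BIRC5, not itself a kinase gene, fell. So did all 3 checkpoint kinase genes and all 3 genes of the anaphase-promoting complex and securin. None of the 5 centromere and kinetochore genes was called. Pairing by day gave 35 calls, all lower (12.2% of all genes lower), which left CDC25C, NUF2, KIF23, NUSAP1 and CKAP2 uncalled. The call count depended on single libraries: it was 10 to 12 without PBS day 1, 2 or 3 or cetuximab day 4 or 5, and 28 without cetuximab day 3. With flow cell as a covariate, where PBS and cetuximab share a flow cell on days 1 and 2 only, CDC20 alone was called (3.38% of all genes lower).

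In SCC6, CDK1 and UBE2C fell over days 1 to 5 and no member rose, where 14.6% of all 17387 genes were called lower and 15.6% higher. The median was -0.16 (0.00 for all genes), and 32 members had a negative sign. Pairing by labelled day gave 16 members lower and 1, FOXM1, higher (19.1% of all genes lower and 21.3% higher), with a median of -0.32. PBS day 1 does not enter that estimate, because no cetuximab library is labelled day 1. The paired fit thus does not compare the same libraries as the unpaired one. The 16 were CDK1, CCNB1, AURKA, BUB1, BUB1B, CENPE, NDC80, NUF2, KIF2C, TPX2, HMMR, ECT2, UBE2C, MKI67, SMC4 and NCAPG. With day 0 added to PBS, FOXM1 was called higher and no member lower (13.9% of all genes lower and 15.2% higher). The count fell to 0 without PBS day 2, 3 or 4 or cetuximab day 3, 4 or 5, was 1 without PBS day 5 or cetuximab day 2 (a), and was 9 without cetuximab day 2 (b). With flow cell as a covariate, CDK1 and ECT2 were lower and CENPF, KIF23 and KIF20A higher (12.3% of all genes lower and 13.6% higher). That fit compares cetuximab days 2 (a), 2 (b) and 3 with PBS days 2 to 5, the only libraries of both treatments that share a flow cell. Cetuximab days 4 and 5 do not enter its estimate. Removal of the trend of the log2 values with GC content gave 3 members lower, CDK1, ECT2 and UBE2C, and 2 higher, CENPF and KIF23 (24.9% of all genes lower and 21.7% higher).

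**Figure D1:**
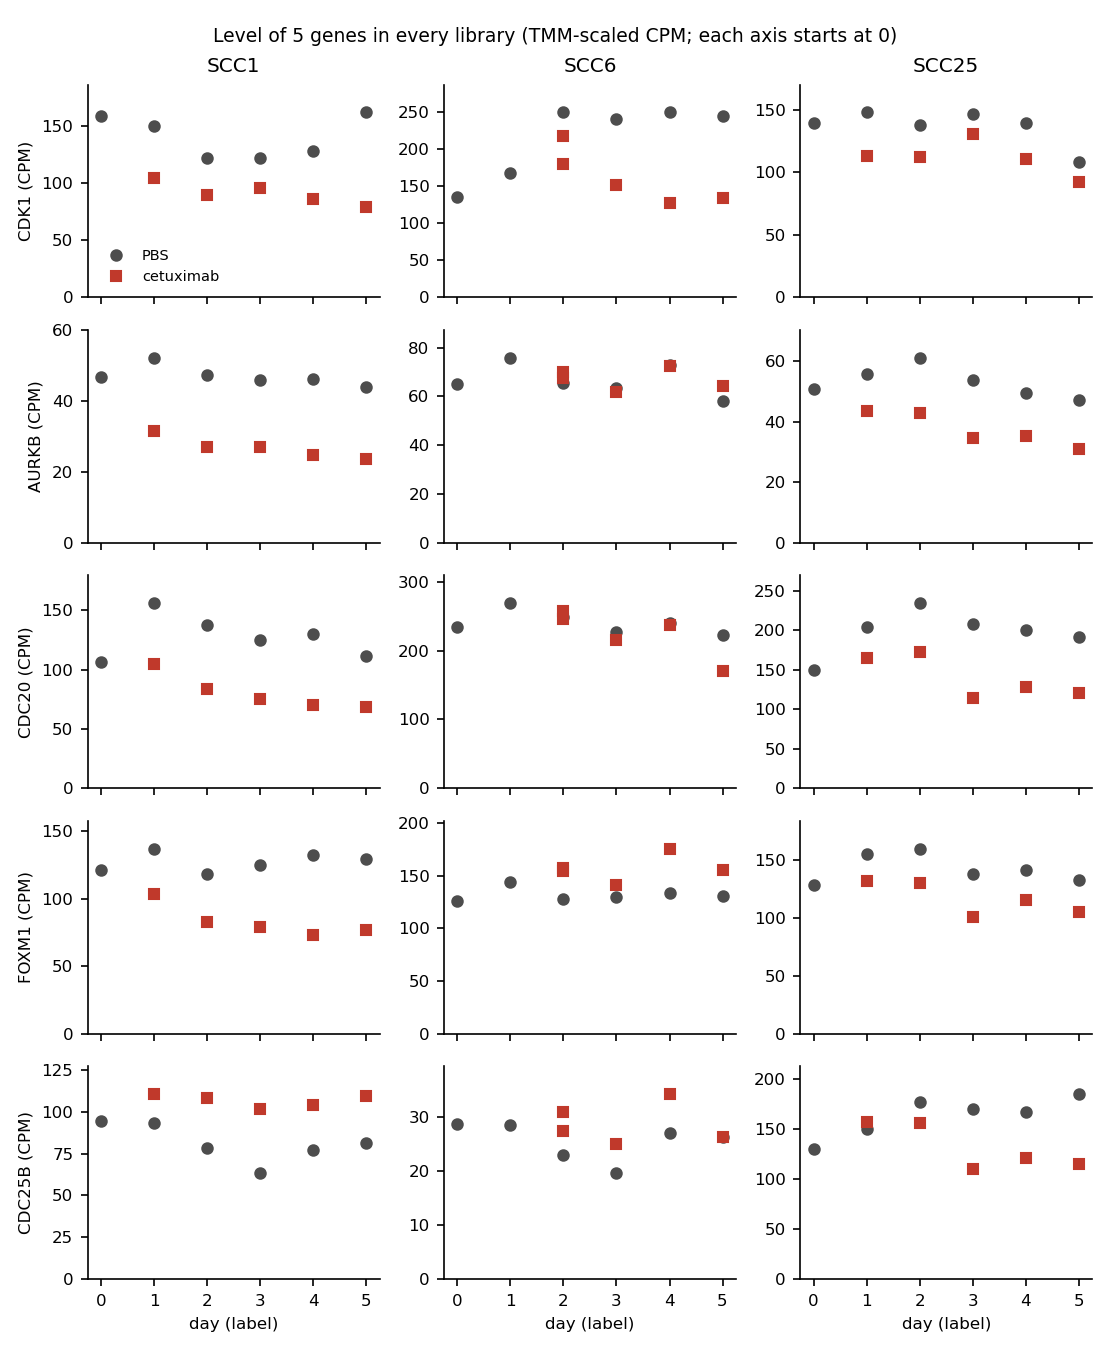
Level of selected members in CPM (y axis) by labelled day (x axis) in SCC1, SCC6 and SCC25, with 1 point per library for PBS and cetuximab. AURKB in SCC1 was at most 31.7 CPM with cetuximab and at least 44.03 CPM with PBS on days 1 to 5, while CDC25B there lay higher with cetuximab.

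**Figure D2:**
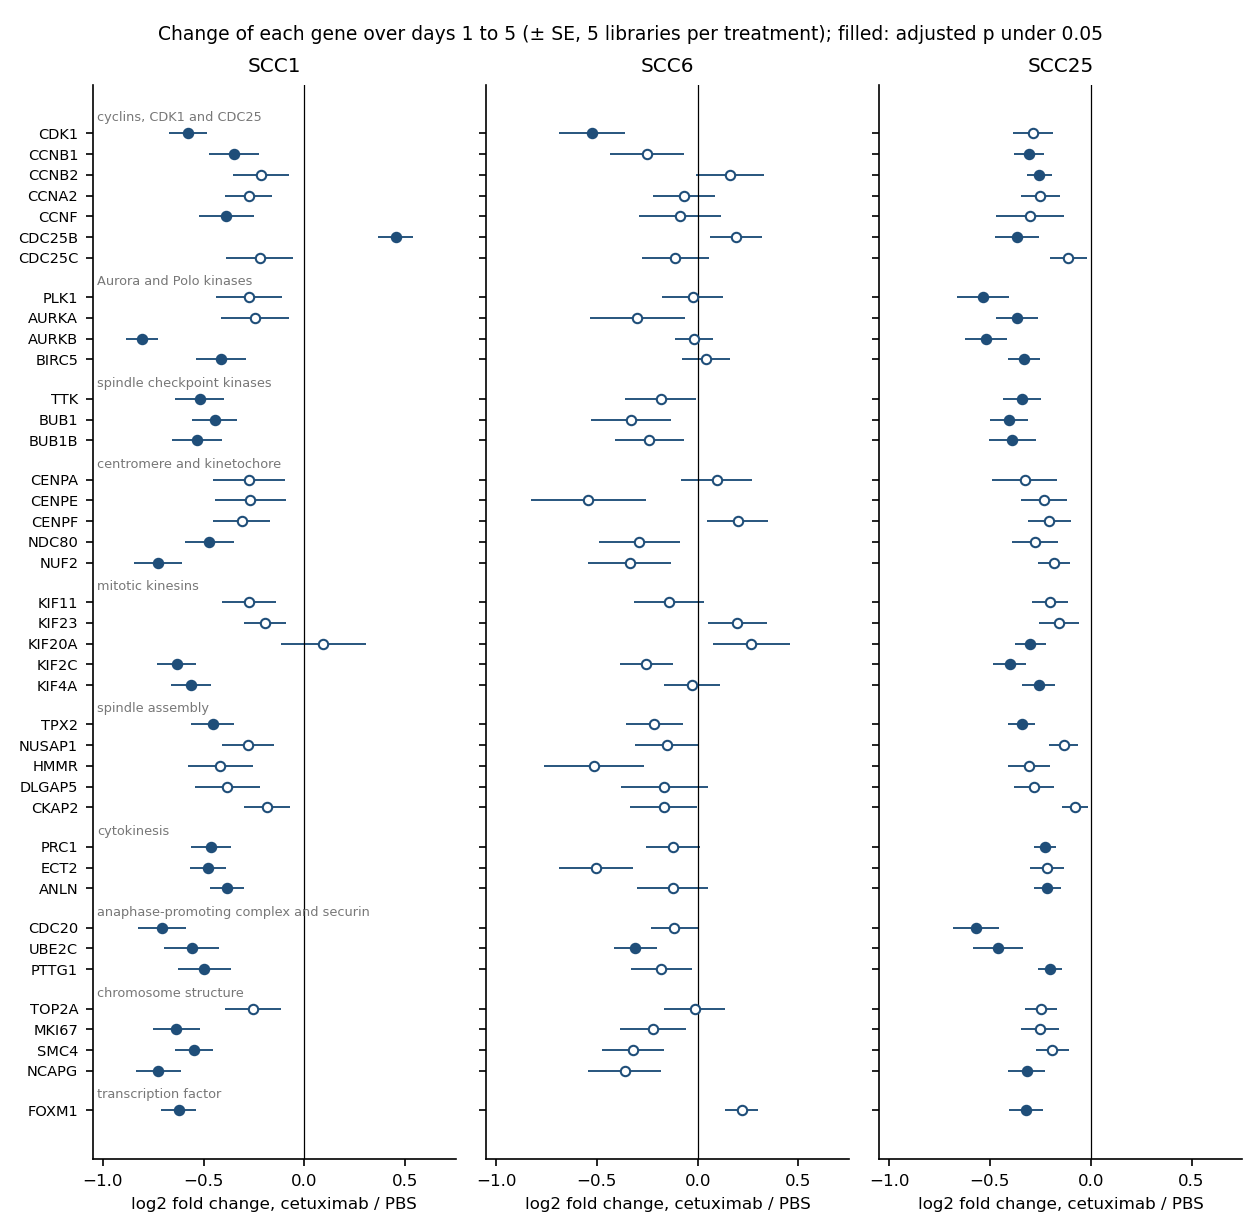
Log2 fold change of cetuximab against PBS over days 1 to 5 (x axis, error bars 1 SE) for the 40 members grouped by role (y axis) in each line, where filled points are called by edgeR. Nearly all points lie left of 0 in SCC1 and SCC25, while those of SCC6 spread around a median of -0.16.

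CDK1, the kinase that drives entry into mitosis, and its partners form the first role, and 3 of its 7 genes fell in SCC1, 3 in SCC25 and 1 in SCC6. In SCC1, CDK1 measured 149.7, 122, 122, 128 and 162 CPM with PBS and 105, 89.7, 95.8, 86.1 and 79.1 CPM with cetuximab. In SCC25, CDK1 stood at 148, 138, 147, 139 and 108 CPM with PBS and 113, 113, 131, 111 and 92.1 CPM with cetuximab. In SCC6, its values were 168, 250.2, 241, 250.03 and 246 CPM with PBS and 181, 218, 152, 128 and 134 CPM with cetuximab. The groups did not overlap in SCC1 and overlapped in the other two lines, and in SCC6 the PBS library of day 1 lay below the other 4. The log2 fold change was -0.58 (SE 0.10, adjusted p = 3.66e-04) in SCC1, -0.29 (SE 0.10, adjusted p = 0.0634) in SCC25 and -0.52 (SE 0.16, adjusted p = 0.0291) in SCC6. Paired by day, CDK1 was called in SCC25 at -0.28 (adjusted p = 0.00371).

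CCNB1, cyclin B1, measured 139.9, 109, 95.7, 100.2 and 97.98 CPM with PBS and 107, 87.3, 81.9, 75.7 and 72.4 CPM with cetuximab in SCC1. The SCC25 libraries gave 170.3, 164, 159, 152 and 136 CPM with PBS and 128, 137, 138, 123 and 109.7 CPM with cetuximab for CCNB1, and those of SCC6 gave 175, 241, 217, 241 and 228 CPM with PBS and 227, 258, 182, 146 and 125 CPM with cetuximab. CCNB1 fell in SCC1, with a log2 fold change of -0.35 (SE 0.12, adjusted p = 0.0369), and in SCC25, at -0.30 (SE 0.07, adjusted p = 0.016), with overlap in both. In SCC6 it was at -0.25 (SE 0.18, adjusted p = 0.33) over all days, and the cetuximab libraries of days 4 and 5 were the lowest of the 10. Pairing by day called it at -0.44 (adjusted p = 0.0355) there. CCNB2, cyclin B2, fell in SCC25 (-0.26, adjusted p = 0.0157) and was at -0.22 (adjusted p = 0.22) in SCC1 and 0.16 (adjusted p = 0.51) in SCC6. CCNF, an F-box protein named for its cyclin box, fell in SCC1 (-0.39, adjusted p = 0.0327). CCNA2, cyclin A2 of S phase and G2, was called in none of the 3 lines in the main fit (edgeR, with no pairing, covariate or other change). Pairing by day called CCNA2 lower in SCC1 and SCC25. Without pairing, it was called lower in SCC1 by DESeq2 and with day 0 added to PBS, and in SCC25 with the GC trend removed.

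CDC25B and CDC25C encode phosphatases that activate CDK1. CDC25B in SCC1 measured 93.3, 78.4, 63.6, 76.9 and 81.2 CPM with PBS and 111, 108, 102, 104 and 109.6 CPM with cetuximab, with no overlap and the cetuximab libraries higher. In SCC25 the values were 150.2, 177, 169, 167 and 185 CPM with PBS and 157, 156, 109.7, 121 and 115 CPM with cetuximab, lowest on day 1 and highest on day 5 under PBS. In SCC6 they were 28.5, 22.9, 19.6, 27.02 and 26.3 CPM with PBS and 30.9, 27.3, 24.9, 34.2 and 26.3 CPM with cetuximab, with overlap. CDC25B rose in SCC1 (0.45, SE 0.09, adjusted p = 9.84e-04), fell in SCC25 (-0.37, SE 0.11, adjusted p = 0.0346) and was at 0.19 (SE 0.13, adjusted p = 0.29) in SCC6. Against the PBS library of the same day, CDC25B was higher in all 5 cetuximab libraries of SCC1 and of SCC6, though nearly equal on day 5 in SCC6. In SCC25 the log2 ratio of cetuximab to PBS of the same day lay at 0.07 on day 1 and at -0.69 on day 5. CDC25C, the lowest member in counts, measured 10.3, 9.19, 8.64, 9.16 and 8.55 CPM with PBS and 8.72, 9.06, 9.04, 8.72 and 7.05 CPM with cetuximab in SCC25, where its log2 fold change was -0.11 (SE 0.09, adjusted p = 0.42). In SCC1 the CDC25C values were 9.54, 7.62, 6.93, 6.36 and 6.71 CPM with PBS and 8.86, 6.92, 5.80, 5.27 and 4.77 CPM with cetuximab, and in SCC6 8.36, 10.7, 11.7, 13.4 and 13.5 CPM with PBS and 12.4, 13.2, 9.21, 10.1 and 9.13 CPM with cetuximab. CDC25C was at -0.22 (adjusted p = 0.30) in SCC1 and -0.11 (adjusted p = 0.65) in SCC6, and groups overlapped in all 3 lines. With pairing CDC25C was called in SCC1, at -0.26 (adjusted p = 0.0354).

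Among the Aurora and Polo kinases, AURKB, the kinase of the chromosomal passenger complex, had the lowest change of all members in SCC1. There it measured 52.3, 47.3, 46.1, 46.2 and 44.03 CPM with PBS and 31.7, 26.9, 26.9, 24.7 and 23.7 CPM with cetuximab, a mean of 47.2 ± 3.08 CPM (SD, n = 5) against 26.8 ± 3.10 CPM (SD, n = 5). SCC25 gave 55.9, 61.2, 53.8, 49.6 and 47.3 CPM with PBS and 43.7, 42.99, 34.6, 35.1 and 31.1 CPM with cetuximab, and in SCC6 AURKB stood at 75.9, 65.4, 63.5, 72.9 and 58.3 CPM with PBS and 69.9, 67.6, 61.95, 72.4 and 64.3 CPM with cetuximab. The groups did not overlap in SCC1 and SCC25 and overlapped in SCC6. AURKB fell by 0.81 on the log2 scale in SCC1 (SE 0.08, adjusted p = 8.29e-06) and by 0.52 in SCC25 (SE 0.10, adjusted p = 0.00575), and was at -0.02 (SE 0.09, adjusted p = 0.91) in SCC6. In SCC1 it was at a same-day log2 ratio of -0.72 on day 1.

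PLK1, Polo-like kinase 1, was called in SCC25 alone without pairing, at -0.54 (SE 0.13, adjusted p = 0.0141). Its values there were 109.9, 122, 101, 100.5 and 89.2 CPM with PBS and 84.9, 88.6, 56.2, 70.5 and 60.3 CPM with cetuximab, with no overlap. PLK1 in SCC1 measured 91.6, 74.8, 60.1, 60.2 and 52.9 CPM with PBS and 73.3, 63.9, 48.3, 46.4 and 47.1 CPM with cetuximab, and in SCC6 118, 101, 93.5, 94.5 and 81.2 CPM with PBS and 111, 118, 92.1, 98.3 and 66.99 CPM with cetuximab. In both lines the groups overlapped, with a log2 fold change of -0.28 (SE 0.16, adjusted p = 0.19) in SCC1 and -0.02 (SE 0.15, adjusted p = 0.92) in SCC6. In SCC1 the PLK1 level was highest on day 1 in both groups, and pairing by day gave -0.29 (adjusted p = 0.00192). BIRC5, the survivin subunit of the passenger complex, fell in SCC1 (-0.41, adjusted p = 0.0163) and SCC25 (-0.33, adjusted p = 0.0145), and AURKA, the Aurora kinase of the centrosomes, fell in SCC25 (-0.37, adjusted p = 0.0313). The signs of the 4 genes in SCC6 were mixed, from -0.30 for AURKA to 0.04 for BIRC5.

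The 3 checkpoint kinases TTK (MPS1), BUB1 and BUB1B (BUBR1), which hold back anaphase, fell in SCC1 and in SCC25. BUB1 measured 88.02, 76.6, 69.6, 74.5 and 72.9 CPM with PBS and 70.4, 60.8, 53.4, 49.6 and 44.5 CPM with cetuximab in SCC1. In SCC25, BUB1 stood at 82.03, 80.9, 85.05, 78.6 and 63.8 CPM with PBS and 61.7, 62.1, 67.6, 55.6 and 48.6 CPM with cetuximab, and in SCC6 at 92.5, 130.4, 113, 108 and 113 CPM with PBS and 107, 130.1, 87.4, 65.2 and 58.9 CPM with cetuximab. The groups overlapped in each line, and in SCC6 the cetuximab libraries of days 4 and 5 lay below all others. Log2 fold changes of BUB1 were -0.44 (SE 0.11, adjusted p = 0.00582) in SCC1, -0.41 (SE 0.10, adjusted p = 0.0131) in SCC25 and -0.33 (SE 0.20, adjusted p = 0.23) in SCC6. TTK was at -0.52 (adjusted p = 0.0038) and -0.34 (adjusted p = 0.028) in SCC1 and SCC25, and BUB1B at -0.53 (adjusted p = 0.00344) and -0.39 (adjusted p = 0.0365). In SCC6, pairing by day called BUB1 at -0.53 (adjusted p = 0.0142) and BUB1B at -0.41 (adjusted p = 0.0343).

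The centromere and kinetochore genes split within the role in SCC1, where NUF2 and NDC80, subunits of the complex that binds microtubules, fell and CENPA, CENPE and CENPF were not called. NUF2 in SCC1 measured 25.4, 23.1, 23.2, 26.7 and 26.7 CPM with PBS and 19.6, 16.6, 13.5, 13.7 and 11.7 CPM with cetuximab, with no overlap and a log2 fold change of -0.73 (SE 0.12, adjusted p = 3.34e-04). SCC25 gave 35.4, 33.7, 37.4, 36.1 and 29.7 CPM with PBS and 29.2, 29.9, 35.7, 29.5 and 28.2 CPM with cetuximab for NUF2, where the cetuximab library of day 3 stood apart above the other 4. In SCC6, NUF2 was at 34.1, 56.7, 45.7, 57.3 and 57.3 CPM with PBS and 47.2, 56.4, 39.1, 30.8 and 27.7 CPM with cetuximab. Its change was -0.18 (SE 0.08, adjusted p = 0.13) in SCC25 and -0.34 (SE 0.21, adjusted p = 0.24) in SCC6. NDC80 was at -0.47 (adjusted p = 0.00667) in SCC1, -0.28 (adjusted p = 0.12) in SCC25 and -0.29 (adjusted p = 0.30) in SCC6.

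CENPE, a kinesin of the kinetochore, had the lowest log2 fold change of all members in SCC6 over days 1 to 5, at -0.54 (SE 0.28, adjusted p = 0.17). Its SCC6 values were 63.9, 91.8, 77.5, 70.9 and 65.7 CPM with PBS and 62.7, 90.03, 46.9, 30.5 and 27.2 CPM with cetuximab, with the cetuximab libraries of days 4 and 5 the lowest of the 10. CENPE in SCC1 measured 44.2, 34.1, 26.2, 30.1 and 32.2 CPM with PBS and 37.9, 32.4, 22.02, 24.3 and 20.9 CPM with cetuximab, and in SCC25 83.3, 77.6, 77.8, 72.7 and 60.7 CPM with PBS and 64.7, 68.8, 77.6, 56.8 and 50.3 CPM with cetuximab. Changes were -0.27 (SE 0.18, adjusted p = 0.23) and -0.23 (SE 0.11, adjusted p = 0.18). CENPA, the centromeric histone H3 variant, measured 21.5, 15.9, 13.7, 13.6 and 13.2 CPM with PBS and 17.6, 14.4, 12.2, 10.4 and 9.49 CPM with cetuximab in SCC1. CENPA stood at 15.4, 13.5, 13.9, 12.4 and 9.01 CPM with PBS and 12.02, 12.4, 10.5, 9.04 and 7.33 CPM with cetuximab in SCC25 and at 16.3, 14.97, 15.6, 15.3 and 15.2 CPM with PBS and 19.2, 23.5, 14.7, 15.1 and 11.05 CPM with cetuximab in SCC6. With overlap in all lines, it was at -0.27 (SE 0.18, adjusted p = 0.23), -0.33 (SE 0.16, adjusted p = 0.18) and 0.09 (SE 0.18, adjusted p = 0.72) in SCC1, SCC25 and SCC6.

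CENPF, a protein of the outer kinetochore, measured 186, 147, 122, 139.6 and 141 CPM with PBS and 157, 130.4, 106, 99.6 and 96.4 CPM with cetuximab in SCC1. The SCC25 values of CENPF were 185, 172, 168, 165 and 131 CPM with PBS and 146, 151, 168, 135 and 114 CPM with cetuximab, and those of SCC6 were 273, 369.8, 328, 349 and 373 CPM with PBS and 468, 486, 397, 329.96 and 285 CPM with cetuximab. In SCC6 the 2 cetuximab libraries labelled day 2 were the highest of the 10. Over days 1 to 5 the change of CENPF was -0.31 (SE 0.14, adjusted p = 0.0928) in SCC1, -0.20 (SE 0.11, adjusted p = 0.20) in SCC25 and 0.20 (SE 0.15, adjusted p = 0.35) in SCC6. Paired by day, all 5 genes of the role were called lower in SCC1, and CENPA, CENPE, CENPF and NDC80 in SCC25. In SCC6, pairing called CENPE at -0.84 (adjusted p = 0.00636), NUF2 at -0.56 (adjusted p = 0.0225) and NDC80 at -0.48 (adjusted p = 0.0385).

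Of the 5 mitotic kinesins, KIF2C (MCAK, a microtubule depolymerase) and the chromokinesin KIF4A fell in SCC1 and in SCC25, and KIF20A (MKLP2, a motor of cytokinesis) fell in SCC25. KIF2C was at -0.63 (adjusted p = 1.78e-04) and -0.40 (adjusted p = 0.00589), and KIF4A at -0.56 (adjusted p = 6.08e-04) and -0.26 (adjusted p = 0.0448). KIF20A in SCC1 measured 47.00, 33.5, 23.7, 28.8 and 25.05 CPM with PBS and 50.1, 35.3, 28.2, 27.7 and 26.6 CPM with cetuximab. The level was highest on day 1 in both groups, and the cetuximab library of that day was the highest of the 10. KIF20A stood at 87.4, 92.7, 87.9, 87.2 and 78.6 CPM with PBS and 74.1, 79.3, 70.2, 70.9 and 59.1 CPM with cetuximab in SCC25 and at 44.4, 59.4, 48.7, 57.9 and 56.5 CPM with PBS and 77.3, 92.4, 58.5, 55.1 and 41.5 CPM with cetuximab in SCC6. Its log2 fold change was 0.09 (SE 0.21, adjusted p = 0.74) in SCC1, which with CDC25B was the only positive sign there and turned negative without PBS day 3 or cetuximab day 1, -0.30 (SE 0.08, adjusted p = 0.0179) in SCC25 and 0.27 (SE 0.19, adjusted p = 0.32) in SCC6. KIF11 (Eg5, which keeps the spindle poles apart) and KIF23 (the motor of centralspindlin) were not called in any line over days 1 to 5 in the main fit. With pairing by day KIF11 was called lower in SCC1 at -0.29 (adjusted p = 0.012) and in SCC25 at -0.19 (adjusted p = 0.0197). KIF23 was called lower in SCC1 with pairing, at -0.21 (adjusted p = 0.0424), and higher in SCC6 with flow cell as a covariate, at 0.34 (adjusted p = 0.0107), and with the GC trend removed, at 0.25 (adjusted p = 0.0492).

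For spindle assembly, TPX2, the activator of Aurora kinase A, fell in SCC1 (-0.46, adjusted p = 0.00436) and SCC25 (-0.34, adjusted p = 0.00488). The other 4 members, which bind microtubules, were not called over days 1 to 5 in the main fit. Without pairing, some were called lower under alternatives, such as HMMR and DLGAP5 in SCC1 by DESeq2. HMMR, DLGAP5 and CKAP2 were called lower in SCC25 with the GC trend removed. HMMR was at -0.42 (adjusted p = 0.0502) in SCC1 and -0.51 (adjusted p = 0.14) in SCC6, and DLGAP5 (HURP) at -0.38 (adjusted p = 0.0695) in SCC1. With pairing, HMMR was called lower in all 3 lines, at -0.46 (adjusted p = 0.0144), -0.30 (adjusted p = 0.00496) and -0.78 (adjusted p = 0.0146) in SCC1, SCC25 and SCC6, and DLGAP5 in SCC1 and SCC25. CKAP2 had the change nearest to 0 in SCC25, at -0.08 (SE 0.06, adjusted p = 0.42), with 110.4, 101, 108, 109 and 96.1 CPM with PBS and 95.5, 101, 113, 98.3 and 90.9 CPM with cetuximab. CKAP2 measured 153, 120.3, 107, 127 and 127 CPM with PBS and 136, 122, 107, 101 and 89.02 CPM with cetuximab in SCC1 and 105, 156, 137, 159 and 162 CPM with PBS and 145, 173, 127, 102 and 101 CPM with cetuximab in SCC6. Its changes there were -0.19 (SE 0.12, adjusted p = 0.21) and -0.17 (SE 0.17, adjusted p = 0.48), and groups overlapped in every line. NUSAP1 was at -0.28 (adjusted p = 0.0937) in SCC1.

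The cytokinesis genes PRC1 (which crosslinks midzone microtubules), ECT2 (the RhoA exchange factor of the cleavage furrow) and ANLN (anillin, the scaffold of the contractile ring) all fell in SCC1. Their log2 fold changes were -0.46, -0.48 and -0.38, with adjusted p of 0.00235, 7.64e-04 and 0.00226 (edgeR). All 3 were among the 12 called with flow cell as a covariate. In SCC25, PRC1 at -0.23 (adjusted p = 0.0135) and ANLN at -0.22 (adjusted p = 0.0397) fell, and ECT2 was at -0.22 (adjusted p = 0.087). In SCC6, ECT2 was at -0.50 (adjusted p = 0.0562) and was called lower with pairing, at -0.69 (adjusted p = 0.00267), with flow cell as a covariate, at -0.32 (adjusted p = 0.0409), and with the GC trend removed, at -0.39 (adjusted p = 0.0197).

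CDC20, the activator of the anaphase-promoting complex that the checkpoint restrains, measured 156, 137, 125, 129.6 and 111 CPM with PBS and 104, 83.4, 75.2, 69.8 and 68.3 CPM with cetuximab in SCC1. In SCC25, CDC20 stood at 205, 234, 208, 201 and 191 CPM with PBS and 165, 173, 114, 129 and 121 CPM with cetuximab. In neither line did the groups overlap, and CDC20 had the lowest change of all members in SCC25 at -0.57 (SE 0.11, adjusted p = 0.00579), beside -0.71 (SE 0.12, adjusted p = 3.99e-04) in SCC1. In SCC6 the CDC20 values were 269, 249, 228, 241 and 223 CPM with PBS and 258, 247, 216, 238 and 171 CPM with cetuximab, with overlap and a change of -0.12 (SE 0.12, adjusted p = 0.48). CDC20 was also the call that SCC25 gave with flow cell as a covariate, at -0.29 (adjusted p = 0.045).

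UBE2C, the ubiquitin-conjugating enzyme of that complex, was the only member that fell in all 3 lines, with 15 members lower in all 3 when libraries were paired by day. For neither count was the share of all genes lower in all 3 lines counted. UBE2C in SCC1 measured 77.2, 69.8, 57.6, 59.6 and 49.1 CPM with PBS and 53.7, 46.6, 38.6, 34.8 and 37.5 CPM with cetuximab. SCC25 gave 73.9, 82.4, 72.96, 67.5 and 63.8 CPM with PBS and 64.1, 63.5, 41.8, 48.6 and 44.9 CPM with cetuximab, and SCC6 gave 237, 234, 206, 241 and 201 CPM with PBS and 199.5, 197, 181, 194 and 143 CPM with cetuximab. UBE2C was the 1 member of SCC6 whose groups did not overlap, while 8.32% of all genes there were lower with no overlap. The changes were -0.56 (SE 0.14, adjusted p = 0.00529) in SCC1, -0.46 (SE 0.12, adjusted p = 0.0242) in SCC25 and -0.31 (SE 0.11, adjusted p = 0.0481) in SCC6. PTTG1, the separase inhibitor securin, was at -0.50 (adjusted p = 0.0083) in SCC1 and -0.20 (adjusted p = 0.0324) in SCC25, values that are uncertain because near-identical PTTG copies elsewhere in the genome can share its reads.

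Of the chromosome proteins, the condensin subunits SMC4 and NCAPG and Ki-67 (MKI67), a coat protein of mitotic chromosomes, fell in SCC1, and NCAPG fell in SCC25. MKI67, whose protein is the standard marker of proliferating cells, measured 469, 418, 362, 420.4 and 400.3 CPM with PBS and 352, 272, 242, 231 and 228 CPM with cetuximab in SCC1, with no overlap. MKI67 in SCC25 stood at 391, 356, 318, 299 and 286 CPM with PBS and 301, 308, 282, 263 and 237 CPM with cetuximab, and in SCC6 at 486, 599, 504, 463 and 479.8 CPM with PBS and 517, 598, 404, 364 and 314 CPM with cetuximab. Its log2 fold change was -0.63 (SE 0.11, adjusted p = 6.71e-04) in SCC1, -0.25 (SE 0.09, adjusted p = 0.0839) in SCC25 and -0.22 (SE 0.16, adjusted p = 0.34) in SCC6. With pairing, MKI67 was called lower in SCC25 at -0.24 (adjusted p = 0.00582) and in SCC6 at -0.34 (adjusted p = 0.0235).

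TOP2A, topoisomerase II alpha, measured 412, 318, 253, 291 and 307 CPM with PBS and 334, 291, 245, 233 and 214 CPM with cetuximab in SCC1. TOP2A stood at 391, 368, 398, 393 and 327 CPM with PBS and 306, 324, 376, 307 and 275 CPM with cetuximab in SCC25 and at 389, 541, 448, 521 and 536 CPM with PBS and 568, 612, 489, 397 and 371 CPM with cetuximab in SCC6. It was called in none of the lines, at -0.26 (SE 0.14, adjusted p = 0.15), -0.25 (SE 0.08, adjusted p = 0.0513) and -0.02 (SE 0.15, adjusted p = 0.95) in SCC1, SCC25 and SCC6. In SCC1 its level was highest on day 1 in both groups, and pairing by day gave -0.27 (adjusted p = 0.011), beside -0.24 (adjusted p = 0.0108) in SCC25. NCAPG was at -0.73 (adjusted p = 2.10e-04) in SCC1 and -0.32 (adjusted p = 0.0295) in SCC25, and SMC4 at -0.55 (adjusted p = 4.99e-04) and -0.19 (adjusted p = 0.12). Paired by day, SMC4 was called in SCC25 at -0.19 (adjusted p = 0.0446) and in SCC6 at -0.47 (adjusted p = 0.0184).

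FOXM1, the forkhead factor that activates G2/M genes, fell in SCC1 and SCC25 and had a positive sign in SCC6. In SCC1 it measured 137, 118, 125, 133 and 129.7 CPM with PBS and 103, 82.6, 78.7, 72.9 and 76.9 CPM with cetuximab, with no overlap and a change of -0.62 (SE 0.09, adjusted p = 9.19e-05). In SCC25 the FOXM1 values were 155, 160.2, 139, 142 and 133 CPM with PBS and 132, 131, 101, 116 and 106 CPM with cetuximab, again with no overlap, at -0.32 (SE 0.09, adjusted p = 0.0227). In SCC6 FOXM1 stood at 144, 128, 130.00, 133 and 131 CPM with PBS and 158, 154, 141, 176 and 155 CPM with cetuximab, where each cetuximab library lay above the PBS library of its labelled day but the groups overlapped. The SCC6 change was 0.22 (SE 0.08, adjusted p = 0.0614), and pairing by day called it higher at 0.25 (adjusted p = 0.0268). With the GC trend removed it was 0.09 (adjusted p = 0.32).

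Across members, 13 were lower and CDC25B higher in SCC1 with no overlap between the 5 PBS and the 5 cetuximab libraries, against 16.0% of all genes lower and 15.3% higher. In SCC25 the 8 such members were CCNB2, PLK1, AURKB, KIF2C, TPX2, PRC1, CDC20 and FOXM1, all lower (7.88% of all genes lower and 6.86% higher). There were 16 members lower in both SCC1 and SCC25, which are 16 of 23 and 16 of 21, and 33 with pairing by day. The share of all genes lower in both lines was not counted, so these joint counts have no background beside them.

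Day by day, the ratio of each cetuximab library to the PBS library of its day was below 1 for 36 to 39 of the 40 members in SCC1 and for 36 to 40 in SCC25. In SCC1 the median log2 ratio was -0.32, -0.33 and -0.32 on days 1 to 3 and -0.55 and -0.70 on days 4 and 5. In SCC25 it was -0.34, -0.23, -0.17, -0.34 and -0.29 on days 1 to 5. In SCC6 the day 2 (a) library gave -0.07 with 24 members lower and day 2 (b) gave 0.12 with 10 lower, followed by -0.16, -0.49 and -0.63 on days 3, 4 and 5 with 30, 36 and 36 lower. Of all genes, 45.7% to 49.8% were lower in any of these 15 pairs. The ratio was lower on every day for 36 members in SCC1, for 35 in SCC25 and for 9 in SCC6, which were CDK1, BUB1, CENPE, NUF2, KIF2C, HMMR, ECT2, UBE2C and MKI67. CDC25B in SCC1, and CDC25B and FOXM1 in SCC6, were higher on every day. On day 5 in SCC6, CDC25B was nearly equal, at 26.33 CPM with cetuximab and 26.29 CPM with PBS. The share of all genes that were lower, or higher, on every day was not counted, so these counts have no background beside them.

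**Figure D3:**
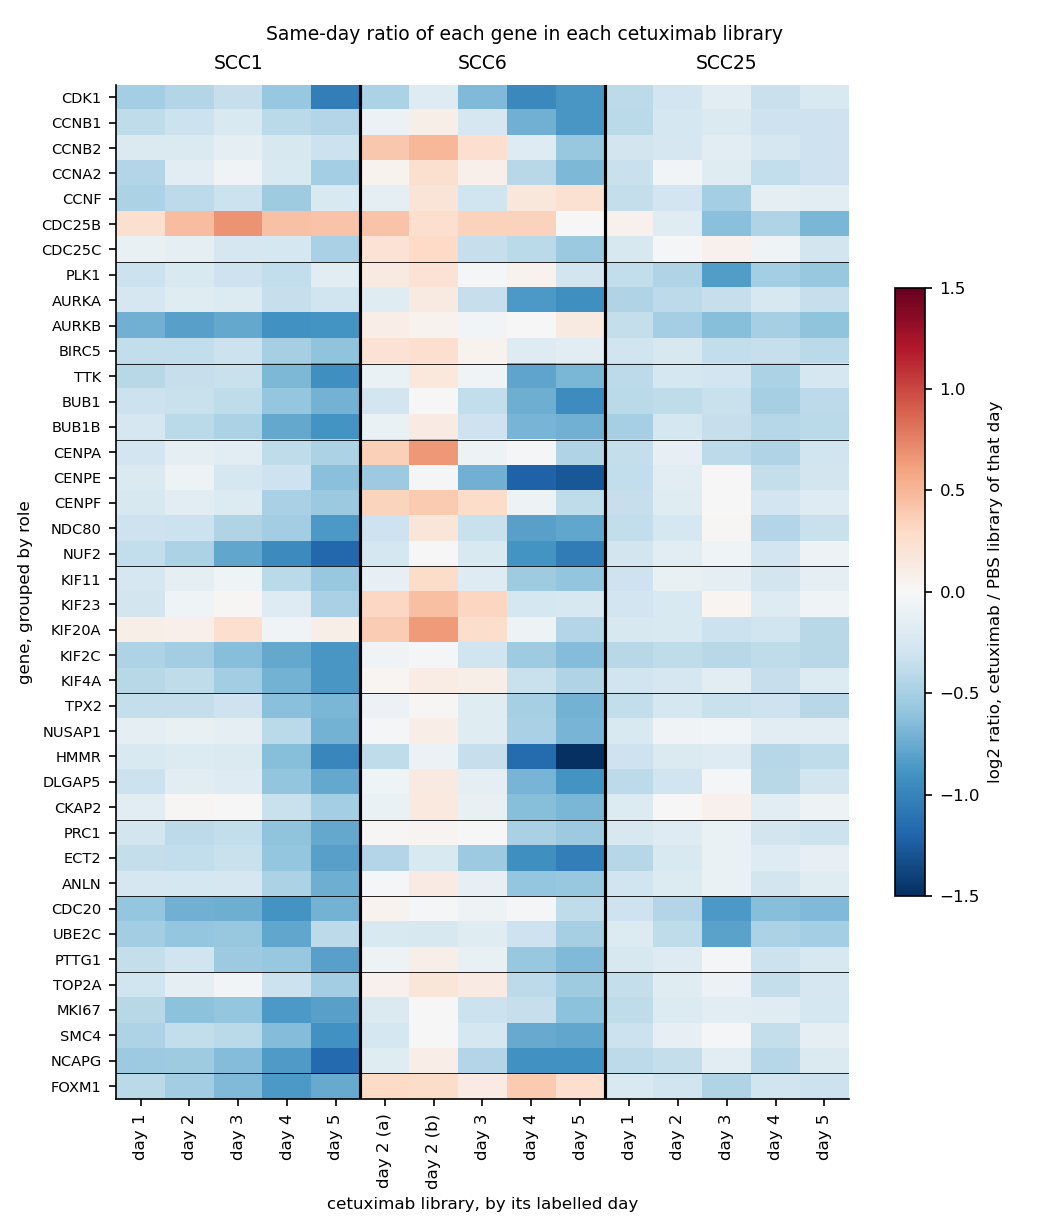
Log2 ratio of cetuximab to the PBS library of the same labelled day (colour) for each member (each line of cells) in each of the 15 cetuximab libraries (columns), grouped by line. In SCC1 and SCC25 most cells are lower, with CDC25B in SCC1 higher on all 5 days, and in SCC6 the libraries of days 4 and 5 are the lowest.

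**Figure D4:**
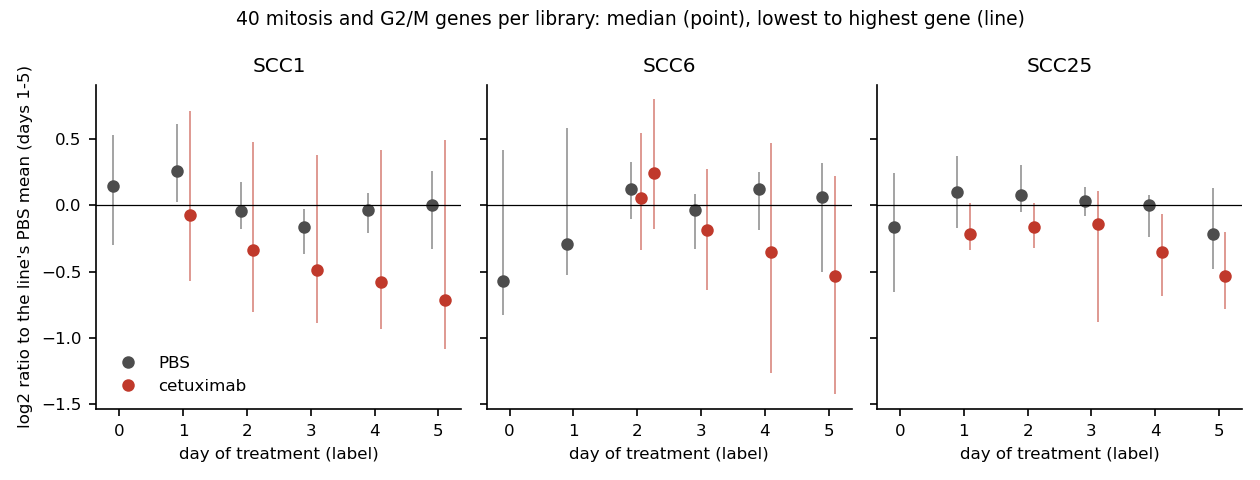
Median over the 40 members of the log2 level relative to the mean of the PBS libraries of days 1 to 5 of the line (y axis), by labelled day (x axis), for PBS and cetuximab. In SCC1 with cetuximab the median went from -0.08 on day 1 to -0.71 on day 5, and in SCC6 it was 0.24 in the day 2 (b) library and -0.53 on day 5.

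Days 1 to 3 and days 4 and 5 were also compared apart, in a fit of both periods. In SCC6, 4 members rose on days 1 to 3 (10.7% of all genes higher), namely CCNB2 at 0.51, CENPF at 0.45, KIF23 at 0.46 and KIF20A at 0.55, with adjusted p of 0.0246, 0.0248, 0.0136 and 0.0493. No member fell by edgeR in those days, and none was lower at an unadjusted p under 0.05 or by DESeq2 (9.61% of all genes lower). The count of 4 became 0 without cetuximab day 2 (a), 1 without day 2 (b) and 2 without PBS day 3. Without PBS day 1 it was 5, of which 3 were higher and 2 lower. PBS of these days includes day 1, from another flow cell, while no cetuximab library of SCC6 is labelled day 1. With pairing, CDK1, ECT2 and UBE2C were called lower in addition to the same 4 (13.9% of all genes lower and 14.7% higher). With the GC trend removed, CDK1 and ECT2 were lower and CDC25B was higher beside the same 4 (19.4% of all genes lower and 18.0% higher).

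On days 4 and 5 in SCC6, 25 members fell and none rose (18.9% of all genes lower and 18.9% higher), with a median of -0.58. They included all 5 spindle assembly genes, all 4 chromosome genes, all 3 checkpoint kinases and all 3 cytokinesis genes. HMMR was the lowest at -1.33 (SE 0.23, adjusted p = 0.00147), followed by CENPE at -1.25 (SE 0.26, adjusted p = 0.00394), ECT2 at -0.99 (SE 0.17, adjusted p = 0.00159), NUF2 at -0.98 (SE 0.22, adjusted p = 0.00565) and CDK1 at -0.93 (SE 0.19, adjusted p = 0.00385). The signs of FOXM1 (0.32), CCNF (0.19), CDC25B (0.18) and AURKB (0.05) were positive, and none of these was called. Of the 15 members not called, the others were BIRC5, CCNB2, CDC20, CDC25C, CENPA, CENPF, KIF20A, KIF23, KIF4A, PLK1 and UBE2C. Paired by day, 30 were called lower and FOXM1 higher (22.9% of all genes lower and 25.5% higher). Leaving out the PBS library of day 1 gave 29 lower and 1 higher. Without the cetuximab library of day 5 the count was 7, and without PBS day 4 it was 11. Both cetuximab libraries of these days came from a flow cell of their own, so for SCC6 on days 4 and 5 treatment and flow cell cannot be told apart.

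The SCC6 changes of days 4 and 5 followed the GC content of the transcripts. Members had a median GC content of 43.7% (35.4% to 59.1%), against 47.8% for 15157 tested genes. Across the 40 members, which share the same libraries, the log2 fold change of days 4 and 5 correlated with GC content at Pearson r = 0.81 and Spearman rho = 0.77, and over the 9731 better-expressed genes at 0.51 and 0.58. After the trend with GC content was removed from all genes, the members' correlations were 0.016 and 0.020, 24 members were called lower (23.6% of all genes) and their median was -0.47. With the trend removed, CDC25B at -0.42 (adjusted p = 0.0212) and AURKB at -0.33 (adjusted p = 0.0199) were lower, and FOXM1 was at -0.07 (adjusted p = 0.55), so that the signs of all 3, and that of CCNF at -0.29 (adjusted p = 0.30), turned. PLK1, BIRC5, CDC20 and UBE2C were called there too, while CCNA2, NDC80, KIF11, DLGAP5, CKAP2, ANLN and TOP2A were not. In SCC25 over days 1 to 5 the members' correlation had the other sign, at -0.56 and -0.48, and 32 members were lower with the trend removed (18.2% of all genes). In SCC1 it was 0.070 and -0.073.

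**Figure D5:**
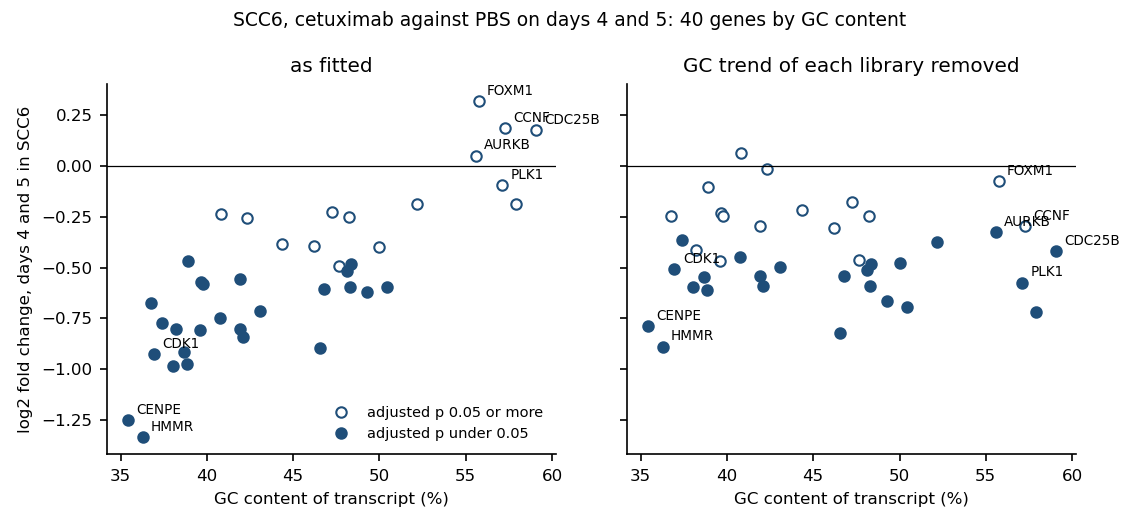
Log2 fold change of cetuximab against PBS on days 4 and 5 in SCC6 (y axis) against transcript GC content in percent (x axis) for the 40 members, as measured and after removal of the trend over all genes, with filled points called by edgeR. The measured values rise with GC content (Pearson r = 0.81 across members) and the values with the trend removed do not (0.016).

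In SCC1, 17 members fell and CDC25B rose on days 1 to 3 (15.6% of all genes lower and 14.0% higher), and 24 fell and CDC25B rose on days 4 and 5 (15.4% and 14.5%). The medians were -0.35 and -0.62. AURKB was at -0.78 and -0.89 in the earlier and later days, NUF2 at -0.54 and -1.06, NCAPG at -0.59 and -0.996 and HMMR at -0.23 and -0.80. Without the cetuximab library of day 2 the earlier count was 11 and without that of day 5 the later count was 15. In SCC25, 9 members fell on days 1 to 3 (3.77% of all genes lower and 4.07% higher) and AURKB, KIF2C and TPX2 on days 4 and 5 (1.22% and 1.49%), with medians of -0.23 and -0.32 and all 40 signs negative in both. The SCC25 counts were the least stable: the earlier one was 1 without PBS day 1 or day 2, 4 without cetuximab day 1, 5 without PBS day 3 or cetuximab day 2 and 20 without cetuximab day 3. The later one was 27 without cetuximab day 3, 1 without cetuximab day 1 and 0 without any other library of the 10.

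The difference between the periods was not called for any member in any line by edgeR, and for no gene of SCC1, SCC6 or SCC25 at all (0.00%). The median difference of the members was -0.71 in SCC6, -0.28 in SCC1 and -0.07 in SCC25, where a negative value is a lower change on days 4 and 5. At an unadjusted p under 0.05 it was 30 members in SCC6, 4 in SCC1 and 0 in SCC25, beside 5626 of 19150, 1458 of 19660 and 599 of 20740 genes. DESeq2 called 27, 0 and 0 members, with the 27 of SCC6 all lower (6.94% of all genes lower there). In SCC6, HMMR had the lowest difference at -1.24 (SE 0.29, adjusted p = 0.0926), then NUF2 at -1.01 (SE 0.28, adjusted p = 0.0926) and CENPE at -0.99 (SE 0.33, adjusted p = 0.10). Pairing by day called 24 members there (4.63% of all genes lower), no filter on low counts 27 (2.30%), and leaving out PBS day 1 gave 11 and PBS day 3 gave 1.

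Whether a member's change under cetuximab differed between the lines was tested over all 30 libraries of days 1 to 5, and 5 members differed, FOXM1 (adjusted p = 9.59e-06), AURKB (adjusted p = 0.000113), CDC25B (adjusted p = 0.000658), CDC20 (adjusted p = 0.0188) and KIF4A (adjusted p = 0.0309). Of all 21414 genes, 26.1% differed. FOXM1 was lower in SCC1 and SCC25 and not in SCC6: its change in SCC6 exceeded that in SCC1 by 0.87 (SE 0.12, adjusted p = 3.82e-06) on the log2 scale. For AURKB that difference was 0.82 (SE 0.13, adjusted p = 4.29e-05), for CDC20 0.62 (SE 0.17, adjusted p = 0.0112), for KIF4A 0.56 (SE 0.16, adjusted p = 0.0142) and for BIRC5 0.48 (SE 0.16, adjusted p = 0.0359), the 5 members with a higher change in SCC6 than in SCC1 (11.0% of all genes, with 8.24% lower). The change of CDC25B was lower in SCC25 than in SCC1, with a difference of -0.81 (SE 0.16, adjusted p = 7.28e-04), and was the only member called there (4.17% of all genes lower and 4.35% higher). Between SCC25 and SCC6, CDC25B at -0.57 (adjusted p = 0.0114), AURKB at -0.51 (adjusted p = 0.00751) and FOXM1 at -0.55 (adjusted p = 0.0016) were lower in SCC25 (10.2% of all genes lower and 7.35% higher).

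With day as a block, 12 members differed between the lines, where 35.9% of all genes did. In the fit without the block, leaving out cetuximab day 1 of SCC1 or day 5 of SCC6 gave a count of 10. With flow cell as a covariate, FOXM1 (adjusted p = 0.00087), AURKB (adjusted p = 0.0054), KIF4A (adjusted p = 0.0258) and ANLN were called (12.2% of all genes), CDC20 was at an adjusted p of 0.15 and CDC25B at 0.15. With the GC trend removed, 9 were called (41.0% of all genes), FOXM1 (adjusted p = 8.94e-05), AURKB, CDC25B and KIF4A among them, and CDC20 was not (adjusted p = 0.15).

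Without drug, the members were at different levels in the lines. In PBS of days 1 to 5, 30 of the 40 were higher and 1 lower in SCC6 than in SCC1 (34.5% of all genes higher and 34.6% lower). PTTG1 stood 2.31 higher on the log2 scale, UBE2C 1.85, HMMR 1.70, ANLN 1.58 and TPX2 1.57, and CDC25B was the exception at -1.65. In SCC25 against SCC1, 17 were higher, with PTTG1 at 2.13 and HMMR at 1.57, and 5 lower, with NCAPG at -0.77 (35.1% and 33.3% of all genes). Against SCC6, 24 were lower and 4 higher in SCC25 (34.8% and 37.3%), with UBE2C at -1.64 and CDC25B at 2.77. CDC25B thus ran opposite to most members, highest in SCC25 and lowest in SCC6. CDK1 was at 231 ± 35.3 CPM in SCC6, 137 ± 18.2 in SCC1 and 136 ± 16.3 in SCC25 (SD, n = 5 each), where SCC1 and SCC25 were not called different (adjusted p = 1.0). The PBS libraries of the lines came mostly from different flow cells, so line and flow cell cannot be told apart.

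Over days 0 to 5 with PBS, 20 members rose with the day in SCC6 and CCNF fell (13.9% of all genes rising and 18.8% falling). CCNB2 rose by 0.22 per day on the log2 scale (SE 0.03, adjusted p = 0.00208), CDC25C by 0.20 and NUF2 by 0.18, and CCNF was at -0.22. Days 0 and 1 were on another flow cell than days 2 to 5, and with flow cell as a covariate edgeR called none (4 at an unadjusted p under 0.05; DESeq2 was not run with it). The count was 2 without day 0, 7 without day 1 and 9 without day 4. In SCC25, CDC25B rose by 0.09 per day and CCNF, KIF11 and MKI67 were at -0.15, -0.08 and -0.07 per day (7.08% and 3.64% of all genes), with 9 called without day 0 and 1 without day 1 or day 5. In SCC1, edgeR called none (1.71% and 0.777% of all genes rising and falling), and 13 members had an unadjusted p under 0.05, beside 3981 of 19045 genes. DESeq2 called 5, all falling (5.00% of all genes rising and 2.80% falling). Without day 5 edgeR called 3, all falling, for which no share of all genes is given.

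Other genes of cell division were taken from 7 lists of pathway genes that hold none of the 40. In SCC1, 31 of 35 other kinetochore and centromere genes fell and CENPT rose, with 6 lower in SCC6 and 12 in SCC25. Their changes ran from SKA3 at -0.96 to CENPT at 0.40 in SCC1. Of 23 other spindle and cytokinesis genes 14 fell in SCC1, 9 in SCC25 and 0 in SCC6, where CIT rose. Of 18 genes of cohesin, condensin and separase, 16 fell in SCC1, 2 in SCC6 and 8 in SCC25, from CDCA5 at -0.80 to WAPL at -0.13 in SCC1. Of 16 other G2/M kinases and phosphatases, 7, 1 and 4 fell, and CDC25A, the phosphatase of S phase entry, was the lowest in SCC1 at -0.98, in SCC6 at -0.88 and in SCC25 at -0.56.

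Of 17 subunits and partners of the anaphase-promoting complex, 6 were lower in SCC1, 4 in SCC6 and 0 in SCC25 by edgeR, and medians of -0.06, -0.21 and -0.08. Among 12 genes of MuvB, DREAM and B-MYB, which act upstream of the members, 7 fell and 3 rose in SCC1, from LIN9 at -0.61 to TFDP2 at 0.51. MYBL2, which encodes B-MYB, was at -0.47 (adjusted p = 8.99e-05) in SCC1, 0.58 (adjusted p = 0.0143) in SCC6 and -0.27 (adjusted p = 0.0656) in SCC25. All 38 DNA replication genes fell in SCC1, with a median of -0.63, against 9 in SCC6 and 18 in SCC25 with medians of -0.22 and -0.26. On days 4 and 5 in SCC6, 22 of the 38 replication genes and 20 of the 35 kinetochore genes were lower.

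Markers of keratinocytes and of other cell types were read beside the members. The summed level of 11 keratinocyte markers was 3412 to 4792 CPM with PBS and 8520 to 13949 CPM with cetuximab in SCC1, where 8 rose and 2 fell. It was 2706 to 5455 and 3863 to 5134 CPM in SCC6 and 14049 to 20868 and 16483 to 20129 CPM in SCC25, with overlap in both. The summed level of 11 fibroblast markers was 53.2 to 74.9 CPM with PBS and 97.8 to 227 CPM with cetuximab in SCC1, 3.92 to 7.33 and 10.7 to 116 CPM in SCC6 and 187 to 236 and 301 to 474 CPM in SCC25. THY1 was under 0.1 CPM on days 1 to 5 in all libraries of SCC1 and SCC6. The 10 leukocyte and endothelial markers summed to 24.96 to 66.5 and 17.6 to 35.2 CPM in SCC1, 16.9 to 19.9 and 5.09 to 8.26 CPM in SCC6 and 168 to 236 and 148 to 178 CPM in SCC25, mostly from CD68 and, with cetuximab in SCC1, from KDR, while CD3E, LYZ and CDH5 were under 0.1 CPM in all SCC25 libraries of days 1 to 5. The part of these shifts in the members' changes was not tested.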

How the data were processed

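Estimated counts per gene symbol, made with Salmon 0.8.2 and tximport by the authors, were deposited as 1 table of 56470 symbols by 33 libraries. The submitters' processing notes name hg19 and GRCh37. Libraries were poly(A)-selected and stranded. No column of the table was without a sample (0), and none held a comparison of the authors. Counts were rounded and fitted per line with edgeR 4.0.16 (limma 3.58.1, R 4.3.3): filterByExpr, TMM factors and the quasi-likelihood F test, with Benjamini-Hochberg adjustment over all genes tested and a threshold of 0.05. The SE was taken as the log2 fold change over the square root of F. Log2 values of single libraries carry a pseudocount of 0.1 CPM. The fits were tested on simulated counts first.

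The 40 members and the lists of other genes were chosen with earlier results of these data known. Levels in every library are given for 13 members named by list and, in each line, for the 2 members with the lowest and the 2 with the highest change. Of each other list, the rule took the 2 lowest and 2 highest per line, of which a part is printed.

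The day in the labels pairs PBS and cetuximab libraries, as a shared day of culture. Over 9928 genes, deviations from the group means correlated within days at 0.11 to 0.38 in SCC1 and 0.22 to 0.59 in SCC25, and in SCC6 at 0.52, 0.57 and 0.58 for days 2 (a), 2 (b) and 3 and at -0.18 and -0.0028 for days 4 and 5. Flow cell names were read from the sample titles. Alternatives were DESeq2 1.42.0, its size factors in edgeR, no filter, day as replicate block, day 0 added to PBS, flow cell as covariate and leaving out each library. Removal of the dependence of log2 values on the GC content of GENCODE transcripts (GRCh37), fitted as a spline of 5 degrees of freedom, also with the block, and the flow cell covariate in the PBS trend were added after the data were seen. Promoters came from RefSeq.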

Additional observations from a re-analysis of the deposited data

Results flagged for a closer look

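The change of 5 members under cetuximab differed between the lines by edgeR's test of the line-by-treatment terms, with adjusted p of 9.59e-06 for FOXM1, 0.000113 for AURKB, 0.000658 for CDC25B, 0.0188 for CDC20 and 0.0309 for KIF4A. FOXM1, AURKB, CDC20 and KIF4A had a change that was 0.87, 0.82, 0.62 and 0.56 higher on the log2 scale in SCC6 than in SCC1, and all 5 SCC1 pairs of each were lower with cetuximab. The change of CDC25B differed by -0.81 between SCC25 and SCC1, and CDC25B was higher with cetuximab in 5 of 5 same-day pairs of SCC1 and lower in 4 of 5 pairs of SCC25.

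A single library stood apart from the other 4 of its group in 4 of 114 groups of 5 libraries, by a gap of more than 0.71 of the group's range, which chance gives in about 1 of 20 groups. These were CDK1 in SCC25 with PBS on day 5 at 108 CPM (lowest), CDK1 in SCC6 with PBS on day 1 at 168 CPM (lowest), NUF2 in SCC25 with cetuximab on day 3 at 35.7 CPM (highest) and CDC25C in SCC25 with cetuximab on day 5 at 7.05 CPM (lowest).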

How the results depend on the processing

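Counts of called members are given in the order SCC1, SCC6 and SCC25, and the cause of each shift was not tested. With libraries paired by day (replicate block), 38, 17 and 35 members were called over days 1 to 5 against 24, 2 and 21, and for days 1 to 3 it gave 29, 7 and 17 against 18, 4 and 9 (the 4 of SCC6 higher, the 9 of SCC25 lower). Of all genes, the block called 44.2%, 40.4% and 24.2% over days 1 to 5 and 32.0%, 28.6% and 10.4% on days 1 to 3. On days 4 and 5 the block gave 38, 31 and 10 against 25, 25 and 3 (32.5%, 48.4% and 3.89% of all genes called with the block). The period difference in SCC6 went from 0 to 24 and the line difference from 5 to 12. Removal of the GC trend gave 5 in SCC6 and 32 in SCC25 over days 1 to 5. The same gave 7 and 32 for the earlier days (37.3% and 26.8% of all genes called), 31 for the later days in SCC25 (16.6%) and 9 for the lines (41.0%). With the block it gave 39, 19 and 39, where 56.4%, 49.7% and 42.4% of all genes were called. Flow cell as a covariate gave 12, 5 and 1 for treatment and 3 and 0 for the PBS trends of SCC1 and SCC6 (8.11% and 3.47% of all genes called for the trends). Adding day 0 to PBS gave 13 in SCC25 (18.2% of all genes called) and 1 in SCC6, where FOXM1 was called higher and the lower calls of CDK1 and UBE2C were both lost. DESeq2 gave 4 for treatment in SCC6, 15 for the earlier and 11 for the later days in SCC25, 27 for the SCC6 period difference and 5 for the SCC1 PBS trend. In that order, it called 34.1%, 11.2%, 5.67%, 14.8% and 7.80% of all genes. Without a filter the last 3 of these counts were 6, 27 and 1 (1.79%, 8.78% and 1.75% of all genes), and treatment in SCC6 gave 1 (12.4%). DESeq2 size factors moved no count by more than 1.5 times.

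Leaving out 1 library in turn gave 22 to 32, 0 to 9 and 10 to 28 for treatment, 11 to 24, 0 to 5 and 1 to 20 for the earlier days, and 15 to 32, 7 to 30 and 0 to 27 for the later days. The libraries behind these ranges are named beside the counts in the report. It gave 0, 0 to 11 and 0 for the period difference, 0 to 3, 2 to 29 and 1 to 9 for the PBS trends and 4 to 10 for the lines. PBS levels gave 30 to 33 for SCC6 against SCC1, 20 to 27 for SCC25 against SCC1 and 26 to 31 for SCC25 against SCC6. Of the named members' values, 847 kept their side of the threshold, 61 newly passed it and 60 fell short of it. No called value turned sign. Values near 0 that were not called did so under some alternatives, namely KIF20A in SCC1 and AURKB, CENPA, TOP2A, CDC25C and PLK1 in SCC6, and 4 values turned by more than 1 SE. These 4 were PLK1 in SCC1 (0.09) and in SCC6 (0.20) and CDC20 in SCC6 (0.03) with flow cell as covariate, and CDC25B in SCC6 (-0.08) with GC removal and block. The sign turns on days 4 and 5 in SCC6 under GC removal stand in the report. The lowest count of a member was 198, and each group rests on 5 libraries.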

Other observations

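Before treatment, on day 0, the median log2 level of the 40 members relative to the PBS mean of days 1 to 5 was 0.14 in SCC1, -0.16 in SCC25 and -0.57 in SCC6, with 10, 34 and 37 members below that mean. On day 1 with PBS it was 0.26, 0.10 and -0.29, and on day 5 it was -0.21 in SCC25 and 0.06 in SCC6. No test was run on single days, which have 1 library each.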
